A study of Mus musculus with 12 samples.

Results

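Brown adipose tissue (BAT) was compared with inguinal white adipose tissue (WAT) in the control mice of the series, using the 6 control libraries of 12 and every gene that passed a filter on low counts. Their genotype was Mcu fl/fl: both copies of Mcu, which encodes the pore subunit of the mitochondrial calcium uniporter, are floxed, and the labels name no deletion in adipose tissue for them. They gave 3 BAT libraries and 3 inguinal WAT libraries, chosen by tissue and genotype and by no measured value. The design text of the series places the sequenced animals on a high-fat diet. The labels do not state strain, sex, age or the exact site of the brown depot. Nor do they state whether a WAT and a BAT library of the same number came from the same mouse. The labels number the libraries without saying that each is a separate animal, so p-values measure the spread between libraries.

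Brown adipocytes burn fatty acids and glucose in densely packed mitochondria, and uncoupling protein 1 (UCP1) in the inner membrane lets protons return without making ATP, which releases heat. White adipocytes store triglyceride in a large droplet and secrete hormones such as leptin and adiponectin. The depots also arise from different parts of the embryo, and adult fat cells keep part of the positional code of Hox and other patterning genes.

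Total counts ran from 15692588 to 18967159 per library, and the first principal component separated the depots with 76.1% of the variance. Levels below are in CPM, the counts of a gene scaled to a common library total with TMM factors and not divided by gene length, listed in the order of replicates 1, 2 and 3. Fold changes are BAT over WAT on the log2 scale from edgeR's quasi-likelihood test with Benjamini-Hochberg adjustment over all genes tested. Marker transcripts of skeletal muscle and of lymphocytes differed widely between libraries, and their source was not tested. Skeletal muscle markers took 1.56, 0.406 and 0.0257% of counts in the WAT libraries and 0.233, 0.0121 and 0.00947% in the BAT libraries, so replicate 1 was the highest of each depot. T and NK lymphocyte markers took 0.00277, 0.0474 and 0.00402% in WAT, with WAT control 2 the highest, and at most 0.00118% in BAT. In such bulk tissue, fewer cells of a type and less RNA per cell cannot be told apart.

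Of the known brown fat markers, Ucp1, Cidea and Zic1 were higher in BAT, whereas Lhx8, described further on, did not pass the test. Ucp1 (chromosome 8, 83290352 to 83298452, plus strand, mm10) measured 0.247, 0 and 0.447 CPM in WAT, from 5, 0 and 9 counts, and 4377, 3639 and 3717 CPM in BAT. Ucp1 was thus high in every BAT library and at a few counts or none in WAT (log2 fold change 14.02, SE 0.713, adjusted p = 4.88e-05). Cidea, a lipid droplet protein of brown fat, measured 17.7, 6.89 and 5.37 CPM in WAT and 2139, 2162 and 1794 in BAT. The zinc finger factor Zic1 (chromosome 9, 91358058 to 91365810, minus strand), a classical brown fat marker, measured 0.297, 0.0475 and 0 CPM in WAT, from 6, 1 and 0 counts, and 6, 7.99 and 8 in BAT. Both genes were higher in every BAT library than in any WAT library (log2 7.67, adjusted p = 9.85e-05 for Cidea, log2 5.92, adjusted p = 0.000857 for Zic1).

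Leptin (Lep, chromosome 6, 29060220 to 29073877, plus strand) went the other way, at 2892, 2299 and 4418 CPM in WAT and 222, 111 and 465 in BAT (log2 fold change −3.59, SE 0.561, adjusted p = 0.00215). Its highest BAT library, replicate 3, still lay far below every WAT library. Resistin (Retn), a secreted protein of mouse white fat, measured 639.8, 590.3 and 444 CPM in WAT and 22.6, 37.5 and 18.9 in BAT. Neuronatin (Nnat) measured 818, 1197 and 427 and 91.3, 79.7 and 70.0, and neither gene overlapped between depots (log2 −4.40, adjusted p = 9.22e-05, and log2 −3.34, adjusted p = 0.000575). Angiotensinogen (Agt) was low in both, at 11.6, 11.7 and 3.03 CPM in WAT and 1.68, 1.53 and 0.572 in BAT (log2 −2.79, adjusted p = 0.00956, and adjusted p = 0.0618 without replicate 1 of both depots).

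Of the genes that mark either kind of adipocyte, Fabp4, the major fatty acid binding protein of fat, measured 11099, 9504 and 9798 CPM in WAT and 8762, 7659 and 8953 in BAT. Each WAT library lay above each BAT library, but Fabp4 did not pass the test (log2 −0.26, adjusted p = 0.166). The droplet coat gene Plin1 overlapped between depots (1927 ± 329 against 2127 ± 223 CPM, SD, n = 3 each, log2 0.14, adjusted p = 0.512). Adiponectin (Adipoq) was lower in BAT (2289.6 ± 219.7 against 837 ± 78.1, log2 −1.45, adjusted p = 0.000287). Pparg, the nuclear receptor that drives fat cell formation, was higher (148 ± 13.1 against 360.1 ± 21.2, log2 1.28, adjusted p = 0.000227). The plot of adipocyte markers shows all 6 values of each gene.

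**Figure D1:**
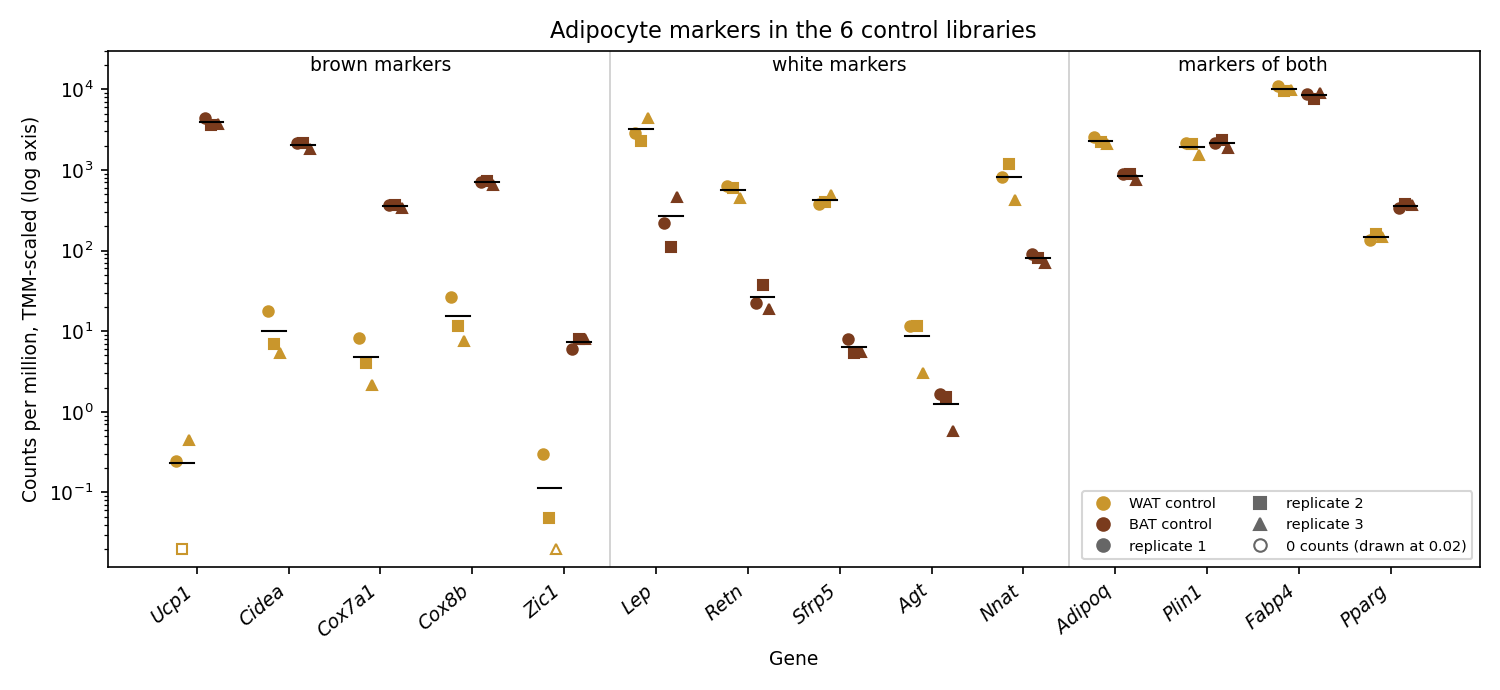
Level in CPM (log axis) of adipocyte marker genes, one symbol per library, with the mean of each depot as a bar; open symbols are libraries with 0 counts. The brown markers shown separate the depots upward in BAT and the white markers shown downward. Plin1 overlaps between depots, and Fabp4 lies slightly lower in each BAT library than in any WAT library.

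The bases before the start sites of 4 genes are shown because these genes mark the contrast: Ucp1 and Cpn2 among the brown genes, Cox6a1 for the respiratory chain and Lep for the white genes. They are RefSeq sequences of GRCm38.p6, 5′ to 3′ on the strand of the gene, and end at the base before the start site, except that the Cox6a1 stretch ends 50 bases before it. Capitals mark matches on either strand to 3 motifs: AAGGTCA, the extended half-site of estrogen-related receptors; the NRF1 site, GCGCA and GCGC with any base between, bound by a regulator of respiratory genes; and TTGCNNAA, a core of C/EBP sites. No 2 marked matches overlap.
Ucp1, chr8:83290098-83290347, plus strand: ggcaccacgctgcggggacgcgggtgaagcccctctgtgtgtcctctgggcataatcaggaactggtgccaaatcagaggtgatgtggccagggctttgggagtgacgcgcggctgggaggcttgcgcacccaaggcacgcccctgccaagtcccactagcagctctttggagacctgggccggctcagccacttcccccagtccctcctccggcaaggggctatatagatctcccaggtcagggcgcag
Cpn2, chr16:30267533-30267782, minus strand: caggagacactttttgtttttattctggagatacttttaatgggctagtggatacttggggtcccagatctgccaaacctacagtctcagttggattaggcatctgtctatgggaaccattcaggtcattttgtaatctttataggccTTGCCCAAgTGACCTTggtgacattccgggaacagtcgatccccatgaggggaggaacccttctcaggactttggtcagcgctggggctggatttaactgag
Cox6a1, chr5:115349008-115349123, minus strand: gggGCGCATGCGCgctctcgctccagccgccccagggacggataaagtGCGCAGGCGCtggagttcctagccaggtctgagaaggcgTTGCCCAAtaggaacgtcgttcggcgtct
Lep, chr6:29059971-29060220, plus strand: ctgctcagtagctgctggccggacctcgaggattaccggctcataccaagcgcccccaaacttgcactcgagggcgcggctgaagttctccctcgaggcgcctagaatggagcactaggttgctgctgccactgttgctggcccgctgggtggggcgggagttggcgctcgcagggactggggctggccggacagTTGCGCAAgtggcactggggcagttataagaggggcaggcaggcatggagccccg
The Cpn2 stretch held a C/EBP match that began 102 bases before the start site and, beside it, an estrogen-related receptor match that began at 93. The half-site was in 2 of 20 thermogenic core genes matched by symbol, Cpn2 and Slc27a2, so Cpn2 does not stand for its list. Cox6a1 held NRF1 matches from 162 and 117 bases before its start and a C/EBP match from 78, and Lep held a C/EBP match from 55. None of the 3 motifs occurs in the 250 bases shown for Ucp1, which says nothing of its distant enhancer. Over the 250 bases before each start, AAGGTCA occurred in 4.08% of all 32851 promoters of the table, the NRF1 site in 3.74% and TTGCNNAA in 9.56%. Among the 14059 promoters of genes tested here the shares were 2.99, 7.38 and 7.8%. Among 70 promoters of nuclear respiratory chain and ATP synthase subunits (65 of 82 genes matched by symbol), 15 held the NRF1 site (21.4%) and 6 the half-site (8.57%). The C/EBP core was in 8 of them (11.4%). The NRF1 site was in 10 of 74 promoters of mitochondrial ribosomal proteins. It was in 2 of 22 for the citric acid cycle and 2 of 20 for fatty acid oxidation. In the white adipocyte list, which fell, 3 of 23 held it, and in the thermogenic core 1 of 32. Of 19 matrix and 14 Hox promoters 0 held it. The half-site was in 0 of 22 citric acid cycle promoters. NRF1 shares were 9.19% for genes higher in BAT and 5.32% for genes lower. Such matches describe letters in a window and were not tested as sites.

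Over the whole transcriptome, 3666 of 15031 genes tested were higher in BAT (24.4%) and 3858 were lower (25.7%), together 50.1%. The counts of each gene list below are read against these shares. Changes of at least 2-fold made up 1821 of the higher and 2375 of the lower genes, and changes of at least 16-fold 142 and 166. BAT and WAT libraries did not overlap for 4545 genes higher in BAT (30.2%) and 4685 higher in WAT (31.2%), together 61.4%. The balance of directions depended on scaling. With library totals alone, without TMM, 2107 genes were higher and 6253 lower, and the median log2 fold change of all genes moved from −0.04 to −0.40. Of those calls 25.2% were higher in place of 48.7% (limma on the deposited FPKM gave 26 to 27.5%). Changes below are relative to the TMM scaling.

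Genes were ranked by fold change if they passed the test, had a mean of at least 2 CPM and did not overlap between depots. Predicted genes were left out, and the lack of overlap below was thus set by the selection. The largest fitted rises in BAT after Ucp1 were those of Lgr6, a receptor for R-spondins, and of its ligand gene Rspo4. Lgr6 measured 0.0495, 0 and 0.0497 CPM in WAT and 192, 229.8 and 203 in BAT, a ratio of 6399 with a 95% counting interval of 1771 to 52847 (adjusted p = 1.67e-05). Rspo4 had no count in any WAT library and 9.07, 9.73 and 9.93 CPM in BAT, at least 196-fold higher against a floor of 3 counts over the WAT group (adjusted p = 9.22e-05). Ptgds, which makes prostaglandin D2, had 1 count in each WAT library and 50.6, 70.1 and 42.4 CPM in BAT, a ratio of 1116 (interval 381 to 5416). The kininogen gene Kng2 measured 0.297, 0.19 and 0.497 CPM in WAT and 186, 255 and 219 in BAT (log2 9.37, adjusted p = 2.21e-05). Next came Slc27a2, an acyl-CoA synthetase for very long fatty acids (0.319 ± 0.425 against 167 ± 48.4 CPM), and Fabp3, the fatty acid binding protein of heart and muscle (4.19 ± 4.13 against 1221 ± 96). Slc2a5, a fructose transporter, had a ratio of 265 (interval 90.2 to 1289.6), and Rnf182, a ubiquitin ligase, of 318 (interval 56.5 to 12624). Aspg, an asparaginase, closed the list (1.19 ± 0.355 against 260.2 ± 57.3 CPM). Fabp3 in WAT followed the muscle share, from 8.56 CPM in the library with most muscle transcripts to 0.348 in the one with least, and the part of muscle in its WAT level was not tested.

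Among genes ranked in the same way, the largest falls included 3 posterior Hox genes, Hoxa10, Hoxc9 and Hoxc10, described with their clusters further on. They were joined by Pramef12, a member of the PRAME family. Pramef12 had no count in BAT and 2.42, 3.8 and 7.85 CPM in WAT (at least 65.5-fold lower against the same floor, adjusted p = 0.00231). Itgad, an integrin of leukocytes, measured 41.1, 34.5 and 80.5 CPM in WAT and 0, 0.0695 and 0.572 in BAT (log2 −7.88, adjusted p = 0.000245). The oxytocin receptor Oxtr measured 60.9, 176 and 292 and 0.731, 1.46 and 1.14 (log2 −7.30, adjusted p = 0.000305), and its WAT libraries spread more than its BAT libraries. Grid1 (a glutamate receptor of the delta type), C6 (a complement component), Dclk3 (a kinase) and Lipf (a lipase best known from the stomach) completed the list, with log2 fold changes of −6.97, −6.88, −6.88 and −6.86. In Grid1, C6, Dclk3, Lipf and Itgad the highest WAT value was that of replicate 3.

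Measured by abundance, the largest gains in BAT included those of 6 transcripts of the mitochondrial genome, of Fasn, Atp5b and Gpd1. Fasn, the fatty acid synthase, rose from 4125, 2378 and 3459 CPM to 13695, 22876 and 14525. Gpd1, which makes glycerol 3-phosphate, rose from 1191 ± 99.7 to 6282 ± 59.3 CPM. The largest losses were those of Gsn, Car3, Sparc, Lpl, Plin4, Cidec, Lep, Col3a1, Hp and Apoe. Gsn (gelsolin, an actin-severing protein) fell from 13274, 8258 and 7792 to 1838, 1268 and 1643 CPM and Car3 (a carbonic anhydrase abundant in fat) from 12317, 8818 and 6059.5 to 1771, 2165 and 1017. Sparc (a matrix protein) fell from 8606, 6772 and 9397 to 2035, 1698 and 2354. Gsn and Car3 were highest in WAT control 1, and for all 3 genes the WAT and BAT libraries did not overlap.

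Of the thermogenic core list, 26 of 29 tested members rose and 1 fell, with a median log2 fold change of 4.98 against −0.04 over all genes tested; Bmp8b, the member not tested, did not pass the filter. The list was compiled mostly from known brown fat genes, so its direction is not independent evidence. Acot11, an acyl-CoA thioesterase, measured 2.32, 2.14 and 2.09 CPM in WAT and 244, 263 and 222 in BAT (log2 6.79, adjusted p = 8.11e-06). Pank1, which starts coenzyme A synthesis, measured 3.12, 3 and 4.42 and 374, 387 and 296 CPM (log2 6.65, adjusted p = 2.56e-05). Both genes spread little within a depot, and no BAT library came near any WAT library. Cpn2, a carboxypeptidase subunit, measured 0.94, 0.666 and 0.646 CPM in WAT and 83, 92.2 and 70.2 in BAT (log2 6.76, adjusted p = 2.21e-05).

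Several regulators of the brown programme rose, by different amounts. Ppara, a nuclear receptor for fatty acids, rose from 4.15, 4.47 and 3.53 to 152, 197 and 96.5 CPM (log2 5.19, adjusted p = 5.25e-05). The coactivator Ppargc1a (PGC-1 alpha) measured 4.01, 3.85 and 2.34 CPM in WAT and 29.1, 27 and 25.6 in BAT (log2 3.00, adjusted p = 0.000107). Prdm16, a determinant of brown fat fate, rose by less than both, from 13.4, 18.7 and 13.3 to 44.4, 48.9 and 44.1 CPM (log2 1.60, adjusted p = 0.00032). Esrra, an estrogen-related receptor, rose from 39.7 ± 4.89 to 233 ± 17.2 CPM (log2 2.55, adjusted p = 4.88e-05). Dio2, which activates thyroid hormone, was higher in every BAT library but varied widely there, at 60.0, 19.5 and 148 CPM against 1.24, 1.19 and 0.944 in WAT (log2 6.06, adjusted p = 0.00119). Eva1b, a list member that is not an established brown fat marker, fell (24.1 ± 1.76 to 16.3 ± 2.31 CPM, log2 −0.57, adjusted p = 0.013). Its adjusted p was 0.0716 without replicate 1 of both depots. Irf4 (log2 −0.12) and Zfp516 (log2 −0.20) did not pass the test.

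The white adipocyte and adipokine list showed the reverse, with 17 of 22 tested members lower, 1 higher and a median of −2.47. Its members too were chosen with earlier results of these data known, so its direction is not independent evidence. Sfrp5, a secreted antagonist of Wnt ligands, fell from 379, 401 and 484 CPM to 7.9, 5.35 and 5.57 (log2 fold change −6.07, SE 0.222, adjusted p = 2.64e-05). The imprinted gene Mest fell from 466, 779.7 and 859 to 6.66, 14.3 and 16 (log2 fold change −5.83, SE 0.438, adjusted p = 0.000109). Slc7a10, an amino acid transporter of white adipocytes, fell from 319.9, 282 and 279 to 14.4, 17.9 and 11.9 CPM (log2 −4.31, adjusted p = 3.47e-05). In these 3 genes each BAT library lay more than 10-fold below each WAT library. Lpgat1, an acyltransferase of phospholipids, and Wfdc21 fell too (log2 −3.41, adjusted p = 0.000108, and log2 −4.49, adjusted p = 9.74e-05). Nampt, the NAD-making enzyme also called visfatin, was the exception and rose from 102 ± 36.1 to 279 ± 71.6 CPM (log2 1.45, adjusted p = 0.00809).

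Genes shared by both adipocyte types were divided, with 7 higher, 5 lower and 8 not past the test among 20. The median of 0.18 turned to −0.18 with library totals alone, where 9 were lower, so the list as a whole has no direction here. Within it, the glucose transporter Slc2a4 (GLUT4) rose from 136 ± 53.3 to 346 ± 26.3 CPM (log2 1.35, adjusted p = 0.00878). The triglyceride lipase Pnpla2 (ATGL) rose from 2792 ± 700.2 to 5409 ± 477 (log2 0.95, adjusted p = 0.00749). The thyrotropin receptor Tshr fell from 111, 116 and 131 to 12, 9.25 and 9.36 CPM (log2 −3.55, adjusted p = 3.07e-05), and lipoprotein lipase (Lpl) from 8195 ± 782 to 2921 ± 758 (log2 −1.49, adjusted p = 0.00178).

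Transcripts of the respiratory chain rose almost without exception. All 37 nuclear complex I genes tested were higher in BAT (median log2 2.33, range 1.23 to 3.15), as were all 4 of complex II (median 2.74) and all 9 of complex III (median 2.74). In complex IV 13 of 15 rose (median 2.47) and in the ATP synthase 13 of 17 (median 2.09). The complex I subunit Ndufv1, which binds NADH, went from 179.9, 144 and 144 CPM to 1363, 1471 and 1306 (log2 3.15, adjusted p = 4.31e-05). Sdhb, the iron-sulfur subunit of complex II, rose from 96.8 ± 24.9 to 1001 ± 49.1 CPM, and Uqcrc1, a core subunit of complex III, from 204 ± 41.4 to 1972 ± 34.3. Atp5b, the catalytic beta subunit of the ATP synthase, rose from 1254 ± 214 to 8647 ± 164. Atp5g1, 1 of 3 genes for the c subunit of the ATP synthase rotor, fell instead, from 35, 31.7 and 24 CPM to 11.9, 8.55 and 8.22 (log2 −1.66, adjusted p = 0.000865).

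The mitochondrial genome encodes 13 proteins of the same complexes, and their mRNAs took 3.67, 2.9 and 3.44% of counts in the WAT libraries and 16.2, 14.5 and 16.2% in the BAT libraries. The difference of means was 12.3 percentage points, with no overlap, and p was 0.1 by an exact two-sided permutation test, the smallest that 3 against 3 libraries allow. All 12 tested mRNAs rose, with a median of 2.57. The mRNA mt-Co1, for a subunit of complex IV, went from 14631, 10507 and 12695 CPM to 71814, 70891 and 72045 (log2 2.50, adjusted p = 9.68e-05). For mt-Atp6 the values were 15.6, 16.5 and 15.7 CPM in WAT and 277, 223 and 321 in BAT (log2 4.10, adjusted p = 3.15e-05), and mt-Co2 and mt-Co3 reached at most 900.4 and 439.8 CPM. How reads that match several places were counted is not stated, and its part in the counts of these 3 mRNAs was not tested.

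Mitochondrial ribosomal proteins, which translate those mRNAs, rose in 74 of 77 tested genes, but by less, with a median of 1.00. Mrps36, which also belongs to the 2-oxoglutarate dehydrogenase complex, stood out at 14.3, 14 and 13.2 CPM in WAT and 127, 132 and 113 in BAT (log2 3.16, adjusted p = 2.21e-05). Mrps6 was the only member lower in BAT (60.5 ± 1.35 to 35.4 ± 5.57 CPM, log2 −0.77, adjusted p = 0.00232). Of the genes of mitochondrial shape and biogenesis 17 of 22 rose (median 1.08), among them the fusion gene Mfn1 (log2 1.48, adjusted p = 6.6e-05) and Immt of the cristae junctions (log2 1.99, adjusted p = 5.76e-05). The fission adaptor Fis1 fell (95.1 ± 3.15 to 69.2 ± 2.99 CPM, log2 −0.46, adjusted p = 0.00417; adjusted p = 0.0626 without replicate 1 of both depots). The plot of fold changes by gene list shows these groups beside each other.

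**Figure D2:**
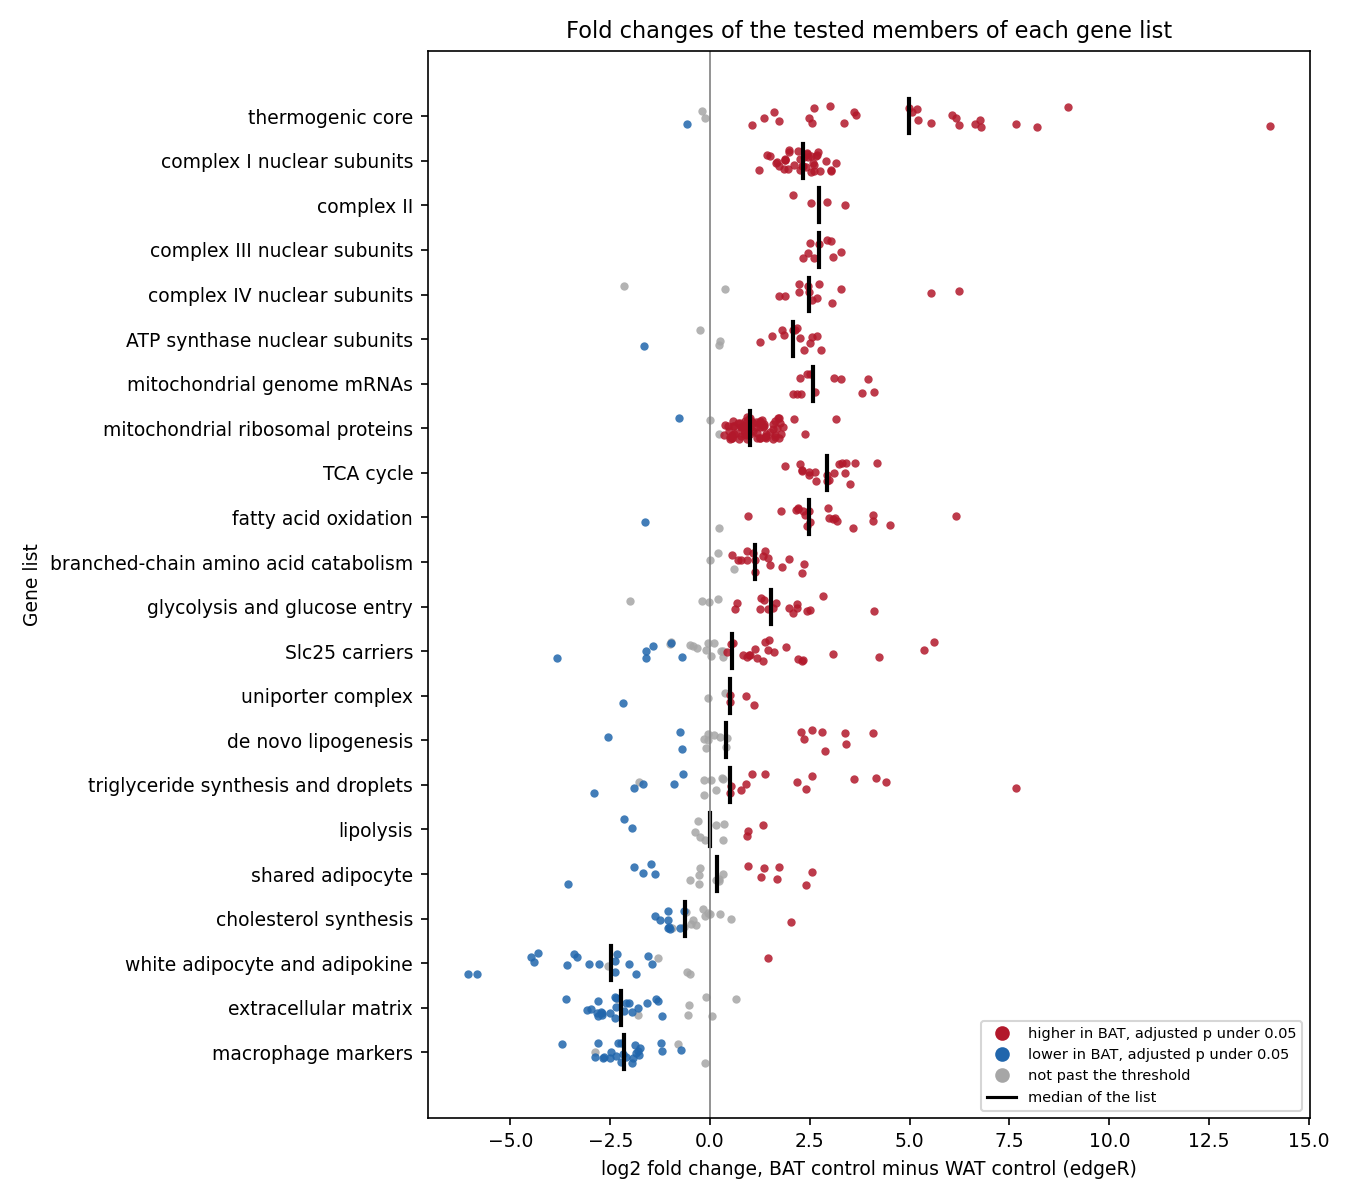
Log2 fold change of BAT over WAT for every tested member of 22 gene lists (x axis), one point per gene, coloured by the edgeR call, with the list median as a black bar. Respiratory chain, citric acid cycle and fatty acid oxidation genes lie to the right of 0 with few exceptions, white adipocyte, matrix and macrophage genes to the left, and lipogenesis and droplet genes on both sides.

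Transcripts of fuel oxidation rose too. All 19 citric acid cycle genes were higher in BAT (median 2.93), and together they took 0.478 ± 0.0634% of counts in WAT and 3.26 ± 0.199% in BAT (SD, n = 3 each). Sucla2, a subunit of succinyl-CoA synthetase, rose from 168, 128 and 136 CPM to 1713, 1686 and 1489 (log2 3.50, adjusted p = 4.14e-05). Ogdh, the calcium-sensitive 2-oxoglutarate dehydrogenase, rose from 516, 382 and 439 to 4456, 4736 and 4019.5 (log2 3.30, adjusted p = 4.88e-05). In fatty acid oxidation 20 of 22 genes rose (median 2.49). Acaa2, the last thiolase of the spiral, rose from 169, 138 and 124 to 3303, 3495 and 3069 CPM (log2 4.52, adjusted p = 3.05e-05). Hadhb, of the trifunctional protein, rose from 250.3, 189.7 and 204 to 3665, 3732 and 3489 (log2 4.08, adjusted p = 3.07e-05). The liver-type carnitine palmitoyltransferase Cpt1a was the exception and fell, from 147 ± 15.4 to 47.7 ± 7.11 CPM (log2 −1.63, adjusted p = 0.000201). Branched-chain amino acid catabolism rose in 16 of 19 genes (median 1.13), led by Bckdha of the branched-chain ketoacid dehydrogenase (log2 2.36, adjusted p = 7.28e-05). Peroxisomal genes were less uniform, with 12 of 22 higher; Abcd2, a transporter of very long chain acyl-CoA, fell from 410.1 ± 31.4 to 117 ± 6.11 CPM (log2 −1.81, adjusted p = 6.38e-05).

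The Slc25 carriers, which move metabolites across the inner membrane, split into 22 higher, 6 lower and 12 not past the test of 40; with library totals alone 12 were lower. Slc25a20, the carnitine-acylcarnitine carrier, rose from 103, 77.8 and 85.9 CPM to 802, 742 and 714 (log2 3.08, adjusted p = 4.76e-05). Slc25a42, a coenzyme A carrier, rose from 45.7, 29.9 and 31.3 to 686, 825 and 484 (log2 4.22, adjusted p = 7.41e-05). The dicarboxylate carrier Slc25a10 fell, from 426, 404 and 336 to 24, 30.5 and 26.9 CPM (log2 fold change −3.84, SE 0.159, adjusted p = 3.15e-05), with no library near the other depot. In the calcium uniporter complex 4 of 7 genes were higher and 1 lower, or 2 higher and 2 lower with library totals alone. Mcu itself (chromosome 10, 59446984 to 59616692, minus strand), floxed in these animals, measured 17.8, 18.6 and 18.5 CPM in WAT and 26.1, 28.4 and 23.5 in BAT (log2 fold change 0.51, SE 0.109, adjusted p = 0.008). Its call was lost with library totals alone (log2 0.15, adjusted p = 0.351) and without replicate 1 of both depots (adjusted p = 0.0758). Mcub, a subunit that lowers uniporter activity, fell from 7.76, 10.2 and 6.31 to 2.12, 1.95 and 1.29 CPM (log2 fold change −2.18, SE 0.291, adjusted p = 0.00115). Smdt1, the EMRE subunit, rose (log2 0.89, adjusted p = 0.00064), and so did Mcur1 (log2 1.09, adjusted p = 0.000354).

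Genes of glucose and lipid handling moved in both directions. Of the glycolysis and glucose entry genes 16 of 20 rose (median 1.52). Pfkl, the liver-type phosphofructokinase, rose from 204, 185 and 228 to 1542, 1289.8 and 1532 CPM (log2 2.82, adjusted p = 4.88e-05), and Eno1, the common enolase, from 696 ± 80.9 to 3754 ± 434 (log2 2.43, adjusted p = 7.03e-05). The muscle isoforms Pfkm and Eno3 overlapped between depots. Eno3 followed the muscle share within each depot, at 352, 99.8 and 8.25 CPM in WAT and 73.5, 24.9 and 16.1 in BAT (log2 −2.01, adjusted p = 0.193). Pfkm followed it in WAT only, with 59.2, 37.2 and 10.5% of the summed counts of Pfkm and Pfkl. In BAT it took 11.2, 12.2 and 7.33%, highest in replicate 2. In de novo lipogenesis 8 of 19 genes rose and 3 fell (1 without BAT control 1 and 5 with library totals alone). Besides Fasn, Acaca, the acetyl-CoA carboxylase, rose from 254, 159 and 208 to 1229, 1946 and 1390.2 CPM (log2 2.88, adjusted p = 0.000205). Elovl6, which lengthens palmitate, rose from 17.7, 16.8 and 16 to 257, 341 and 258 (log2 4.08, adjusted p = 3.05e-05), and Mlxipl, the carbohydrate-response factor ChREBP, from 82.1, 67.9 and 77 to 532, 559 and 491 (log2 2.80, adjusted p = 4.14e-05). The desaturase Scd2 fell from 781 ± 214 to 133 ± 15 CPM (log2 −2.56, adjusted p = 0.000197). Scd1, the main stearoyl-CoA desaturase of fat, measured 39095, 26247 and 19672 CPM in WAT and 38076, 31219.6 and 41975 in BAT and overlapped between depots (log2 0.39, adjusted p = 0.275).

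Triglyceride and droplet genes held 13 risers and 5 fallers of 25, and the CIDE and perilipin families each went both ways. Plin5, the perilipin of oxidative tissue, rose from 28.3, 14.5 and 19.5 CPM to 512, 370.4 and 447 (log2 4.41, adjusted p = 7.12e-05). Plin4 fell from 5097, 3882 and 4125 to 1161, 1135 and 1217 (log2 −1.90, adjusted p = 0.000132). Cidec, the droplet fusion protein of white fat, fell from 5013, 3535 and 4559 to 1489.7, 1183 and 1412 (log2 −1.68, adjusted p = 0.000453), opposite to Cidea above. Mogat2, a monoacylglycerol acyltransferase, fell from 9.2 ± 2.39 to 1.21 ± 0.316 CPM (log2 −2.91, adjusted p = 0.000447). Cholesterol synthesis was lower in 9 of 22 genes, for example mevalonate kinase Mvk (44.1 ± 3.25 to 22 ± 1.64 CPM, log2 −1.01, adjusted p = 0.00039) and Sc5d (log2 −1.06, adjusted p = 0.000815), and higher in 1. Fdft1, squalene synthase, rose from 36.2, 44.6 and 28.7 to 146, 181 and 119 (log2 2.03, adjusted p = 0.000434). Its exons share 774 bases with Ctsb on the other strand, and reads of both genes cannot be told apart there if strand was not used. With library totals alone 15 of the cholesterol genes were lower.

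For 16 pairs of paralogs the share of the first gene in the summed FPKM of the pair (counts per length and library total, as deposited) was compared, which does not depend on scaling between libraries. Shares of counts, not divided by length, differ in size: Fabp3 then took 12.13 to 12.99% in BAT in place of 42.9 to 44.9%, Cox8b 46.9 to 47.4% in BAT and Mcub 25.4 to 35.3% in WAT, and the same 10 pairs did not overlap. In 10 pairs the depots did not overlap, 6 with the first gene at a higher share in BAT and 4 at a lower share. Among the levels of all genes tested, 61.4% did not overlap, so separation of 10 in 16 pairs is near that share. Each of the 10 pairs had p = 0.1 by the exact two-sided permutation test, the smallest possible. After adjustment over the 16 pairs p was 0.16, so no pair passes the threshold by that test.

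The oxidase subunits Cox7a1 and Cox8b, which replace the common forms in heart, muscle and brown fat, made up more than 50% of their pairs in each BAT library and under 20% in each WAT library. Cox7a1 took 14.8, 10.3 and 5.6% of its pair with Cox7a2 in WAT and 67, 65.6 and 66.6% in BAT, and Cox8b 13.3, 7.38 and 4.64% of its pair with Cox8a in WAT and 57.7, 57.2 and 57.5% in BAT. The BAT libraries lay within 2 percentage points of each other, and the WAT values followed the muscle share of the libraries, highest in replicate 1 and lowest in replicate 3. Its part in the WAT values was not tested. Cpt1b took 0.28 ± 0.242% of its pair with Cpt1a in WAT and 37.8 ± 7.21% in BAT (SD, n = 3 each), and measured 0.594, 0.238 and 0.0994 CPM in WAT and 26.3, 22.5 and 18.9 in BAT. Fabp3 took 44.9, 44.3 and 42.9% of its pair with Fabp4 in BAT and 0.419, 0.21 and 0.0194% in WAT. Ldhb, the lactate dehydrogenase subunit of oxidative tissue, took 7, 9.3 and 6.32% against Ldha in WAT and 49.5, 47.1 and 45.7% in BAT. Plin5 took 2.85, 1.53 and 2.73% against Plin1 in WAT and 34.6, 26.1 and 34.5% in BAT.

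Of the shares that were lower in BAT, that of Mcub in its pair with Mcu was 69.7, 74.2 and 64.2% in WAT and 29.9, 26.5 and 22.4% in BAT. Ppargc1a made up 39.5, 27.2 and 35.8% of its pair with Ppargc1b in WAT and 11.8, 6.07 and 16% in BAT. Ppargc1b (PGC-1 beta) itself rose from 3.71, 6.23 and 2.53 to 132, 253 and 81.1 CPM (log2 5.22, adjusted p = 0.000414). Cox4i2 made up 2.13, 5.59 and 6.73% of its pair with Cox4i1 in WAT and 1.17, 1.28 and 0.95% in BAT. Cox4i2 itself did not pass the edgeR test (log2 0.38, adjusted p = 0.407), while Cox4i1 rose (log2 2.47, adjusted p = 5.15e-05). Cox6a2 made up 4.76, 1.93 and 1.15% of its pair with Cox6a1 in WAT and 0.331, 0 and 0% in BAT. The highest library of each depot was again replicate 1, and Cox6a2 did not pass the edgeR test (log2 −2.15, adjusted p = 0.278). The pairs of the calcium pump Atp2a1 with Atp2a2 and of the creatine kinase Ckmt2 with Ckb overlapped between depots and spread widely with the muscle share: Atp2a1 made up 94.2, 81 and 0.177% in WAT and 65.4, 1.05 and 0% in BAT. The plot of paralog shares gives all 6 values of each pair.

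**Figure D3:**
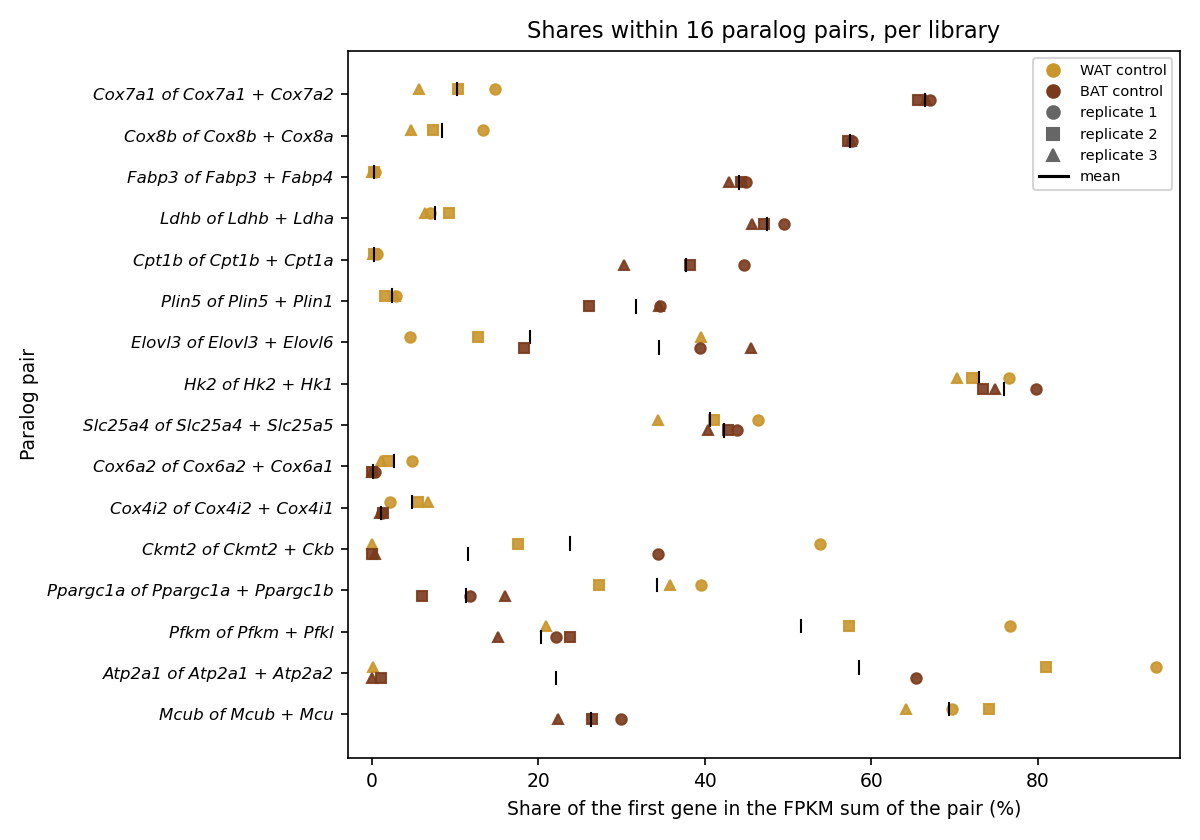
Share of the first gene in the summed FPKM of 16 paralog pairs (x axis, percent), one symbol per library and a bar at the mean of each depot. Cox7a1 and Cox8b sit above 50% in each BAT library and below 20% in each WAT library, while Atp2a1, Pfkm and Ckmt2 scatter across replicates of WAT.

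Hox genes, arrayed in 4 clusters, are expressed from the low paralog groups at the front of the body to the high groups at the rear. Of 36 Hox genes of paralog groups 2 to 13, 25 were tested, 7 were higher in BAT and 10 lower. The direction followed the paralog group. Groups 2 to 5 held 7 higher and 1 lower of 11, groups 6 and 7 held 1 lower of 5, and groups 8 to 10 held 8 lower of 9. Among the last, Hoxa10, Hoxc9 and Hoxc10 had 0, 1 and 1 counts over BAT. They passed the filter on counts through WAT alone, so their direction was set by it. Hoxc10 (chromosome 15, 102966796 to 102971893, plus strand) measured 18.2, 20.6 and 15.1 CPM in WAT and had 1 count in all of BAT, a ratio of 756 (95% counting interval 135 to 29878, adjusted p = 4.88e-05). Its neighbour Hoxc9 measured 18.3, 21.4 and 16.5 CPM in WAT, also with 1 count in BAT (a ratio of 790.0, interval 142 to 31231). Hoxa10 had no count in BAT and 9.35, 12.4 and 18.8 CPM in WAT, at least 189-fold lower against a floor of 3 counts over the group (adjusted p = 0.000364).

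At the front end Hoxa4 rose from 1.58, 1.05 and 1.94 CPM to 12.5, 16.2 and 16 (log2 fold change 3.29, SE 0.27, adjusted p = 0.000153). Hoxa5 rose from 6.33, 5.42 and 10.5 to 40.9, 31.7 and 32.2 (log2 fold change 2.23, SE 0.266, adjusted p = 0.000706), also with no overlap. Hoxa3 (1.10), Hoxb4 (1.09) and Hoxc4 (1.42) also rose. Hoxc8 fell from 71.4, 76.8 and 62.3 to 5.63, 3.62 and 2.43 CPM (log2 −4.17, adjusted p = 8.26e-05), Hoxa9 from 19.4 ± 4.54 to 0.815 ± 0.498 (log2 −4.57, adjusted p = 0.000225), and Hoxd9 by less (log2 −1.35). Within the Hoxc cluster the log2 fold changes ran in order of position, 1.42, 0.70, −0.74 and −4.17 for Hoxc4, Hoxc5, Hoxc6 and Hoxc8, before the near-absence of Hoxc9 and Hoxc10 in BAT. The annotated span of Hoxc5 covers Hoxc6, Hoxc8 and Hoxc9 on the same strand, and that of Hoxa3 covers Hoxa4, Hoxa5 and Hoxa6. How reads in any shared exons were counted is not stated, so the values of these genes are uncertain to that extent. Across the 25 genes the fold change and the paralog group had a Pearson r of −0.748 and a Spearman rho of −0.828. These are descriptions, since neighbours in a cluster share their surroundings and all genes share the libraries. Both also include Hoxa10, Hoxc9 and Hoxc10, whose fitted values rest on 0 or 1 count in BAT. The plot of Hox genes by paralog group shows the turn between groups 5 and 8.

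Several Hox calls depended on single libraries. Hoxc6 lost its call without BAT control 2 or BAT control 3 (adjusted p up to 0.059). Hoxa2 (log2 1.10) kept it only without WAT control 3 and Hoxd4 (log2 −1.03) only without WAT control 1, with adjusted p up to 0.12 and 0.134 otherwise. Hoxb8 (log2 −0.84) kept it without BAT control 1 or WAT control 2, Hoxb9 (log2 −1.51) without BAT control 1 or WAT control 1, and Hoxc5 without BAT control 2 or WAT control 2, and the other fits gave adjusted p up to 0.104, 0.0914 and 0.0908. With the replicate number as a block Hoxd4 was not called (adjusted p = 0.0594), while Hoxa7 and Hoxb2 were (adjusted p = 0.0342 and 0.0328). Hoxa6, Hoxa7, Hoxb2, Hoxb3, Hoxb5, Hoxb6, Hoxb7 and Hoxd8 did not pass the test, with log2 fold changes between −0.63 and 0.98.

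**Figure D4:**
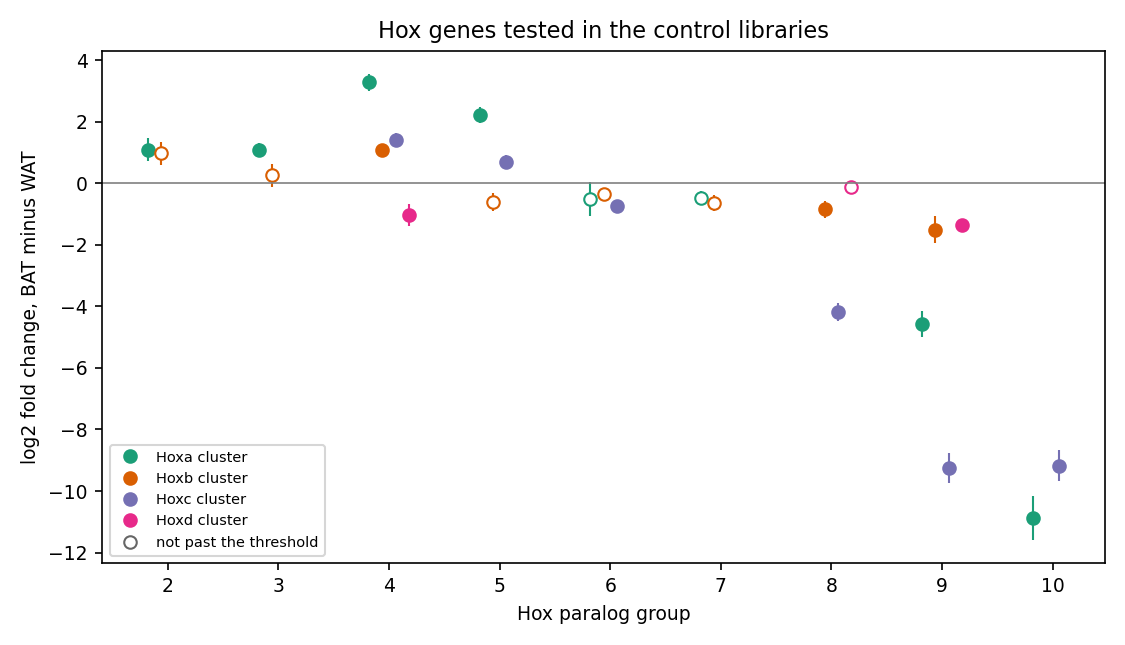
Log2 fold change of BAT over WAT for the 25 tested Hox genes by paralog group (x axis), coloured by cluster, with the standard error as a bar; open symbols did not pass the test. Values lie above 0 mostly in groups 2 to 5 and reach their lowest in groups 9 and 10; the values of Hoxa10, Hoxc9 and Hoxc10 rest on 0 or 1 count in BAT and are not bounds.

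Other positional and lineage factors were called about as often as all genes tested, with 4 higher and 7 lower of 21; 2 were higher without WAT control 2, without BAT control 1 or with library totals alone. Tbx5, a T-box factor of the forelimb and heart, rose from 2.32, 2.9 and 1.84 CPM to 13.9, 9.18 and 13.5 (log2 2.37, adjusted p = 0.000517). Tbx15 was lower in BAT, at 38, 19.7 and 16.2 CPM in WAT and 7.02, 3.82 and 6.72 in BAT (log2 −2.07, adjusted p = 0.00461). The homeobox gene Shox2 (16.1 ± 5.33 to 3.04 ± 1.43, log2 −2.41, adjusted p = 0.00399) and the glypican Gpc4 (73.8 ± 18.3 to 22.7 ± 3.25, log2 −1.70, adjusted p = 0.000618) were lower too. Lhx8, at times used as a brown marker, measured 5.39, 9.65 and 6.41 CPM in WAT and 3.44, 3.55 and 5.86 in BAT and did not pass the test (log2 −0.74, adjusted p = 0.0944). Emx2 measured 7.62, 3.66 and 0.745 CPM in WAT and 0.366, 0 and 0.0715 in BAT; its call (adjusted p = 0.0134) was lost without BAT control 3 (adjusted p = 0.0558).

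Signalling genes changed in part. Of the adrenergic and cAMP list 17 of 29 rose (11 with library totals alone) and 5 fell. The adenylyl cyclases did not move together. Adcy3 rose from 22.9, 25.2 and 25.4 CPM to 89.8, 118 and 82.5 (log2 1.98, adjusted p = 0.000113). Adcy5 fell from 380.0, 277 and 336 to 17.8, 14.9 and 13.9 (log2 −4.41, adjusted p = 3.15e-05). The alpha-1 receptors did likewise, with Adra1a rising from 23.5 ± 3.81 to 115 ± 12.6 CPM (log2 2.29, adjusted p = 7.35e-05) and Adra1b falling from 1.96 ± 0.528 to 0.145 ± 0.146 (log2 −3.71, adjusted p = 0.00403). The natriuretic peptide clearance receptor Npr3 fell from 1161, 1119 and 1494 to 177, 154 and 392 CPM (log2 −2.38, adjusted p = 0.00229). Among 28 nuclear receptor genes 13 rose and 4 fell (2 without replicate 1 of both depots). Esrrb rose from 0.244 ± 0.0987 to 5.05 ± 1.92 CPM (log2 4.33, adjusted p = 0.000434).

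Of 20 secreted factors described in brown fat, 6 were higher in BAT and 9 lower. The growth factor Igf1 fell from 123, 178 and 148 CPM to 12.7, 14.4 and 9.93 (log2 −3.60, adjusted p = 5.06e-05) and Fstl1 from 351 ± 58.6 to 59.5 ± 2.13 (log2 −2.56, adjusted p = 5.3e-05). Vegfa, which drives vessel growth, rose from 209.6, 185 and 142 to 583, 634 and 561 CPM (log2 1.73, adjusted p = 0.000303). Pm20d1, an enzyme of N-acyl amino acids, rose from 8.86 ± 1.15 to 42.5 ± 9.39 (log2 2.26, adjusted p = 0.00018). In the insulin pathway 2 of 16 genes rose and 4 fell, shares no higher than those of all genes tested. With the replicate number as a block 7 were lower, and with library totals alone 10. In the clock 6 of 19 rose and 2 fell, among them Rora (log2 −1.60, adjusted p = 0.000568). The labels do not state the hour of sampling.

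Matrix, macrophage and progenitor genes were mostly lower in BAT. The extracellular matrix list fell in 23 of 30 genes, the other 7 not passing the test (median −2.24), and its share of counts was 3.45, 2.95 and 3.37% in WAT and 0.604, 0.521 and 0.715% in BAT. Col15a1, a collagen of basement membranes, fell from 813, 809 and 1045 CPM to 56.8, 87.1 and 73 (log2 −3.62, adjusted p = 5.48e-05). Col6a2 fell from 1187, 1170.3 and 1028 to 198, 209 and 188 (log2 −2.51, adjusted p = 4.79e-05). Macrophage markers fell in 23 of 26 genes (median −2.15). Adgre1, which encodes F4/80, fell from 55.2, 45 and 34.6 to 9.51, 7.93 and 8.79 CPM (log2 −2.36, adjusted p = 0.000142). Itgax, which encodes CD11c, fell from 22.5, 31.2 and 26.4 to 3.73, 5.98 and 6.36 (log2 −2.31, adjusted p = 0.000373). Progenitor markers were lower in 10 of 17 genes, such as Cd55 (48.2 ± 7.79 to 8.38 ± 2.02 CPM, log2 −2.52, adjusted p = 0.00016), and higher in 2 (1 without BAT control 3), among them Dlk1, a marker of preadipocytes (log2 2.24, adjusted p = 0.00398). Mcpt4, a protease of mast cells, fell from 22.4 ± 6.39 to 3.55 ± 1.46 CPM (log2 −2.65, adjusted p = 0.00126).

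Lymphocyte genes were highest in WAT control 2. Of 14 T and NK cell genes tested 11 were lower in BAT, but 5 without WAT control 2, and 1, 5 and 2 without BAT controls 1, 2 and 3. The whole list took at most 0.00118% of counts in a BAT library. A member with few counts there could pass the filter only through WAT, and its direction was then set in advance. Trac, the T cell receptor alpha constant gene, measured 4.01, 29.5 and 5.32 CPM in WAT and 0.439, 1.39 and 0.357 in BAT (log2 −4.13, adjusted p = 0.0122). Cd79a, of the B cell receptor, measured 0.89, 88.8 and 0.298 and 1.61, 3.82 and 0.858 CPM (log2 −3.83, adjusted p = 0.137). Ighm, the heavy chain of IgM, did not follow it and was high in every WAT library, at 745, 867 and 971 CPM against 35.6, 48.5 and 58.7 in BAT (log2 −4.18, adjusted p = 5e-05).

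Of 18 endothelial markers 5 were higher, a share near that of all genes tested, and 1 was lower, a share below it. Higher members numbered 14 without WAT control 3, which held the largest endothelial share (0.367% of counts), 3 without any other single library, 1 without replicate 1 of both depots and 8 with the replicate number as a block. The VEGF receptor Kdr rose from 90.5, 92.6 and 110.4 CPM to 266, 318 and 230.1 (log2 1.47, adjusted p = 0.000437). Vwf, which binds platelets, fell from 125, 73.3 and 185 to 42.9, 34.8 and 34.3 (log2 −1.77, adjusted p = 0.00399). Of 10 Schwann cell and nerve genes 1 was higher, 3 were lower and 6 did not pass the test. The one that rose was S100b, also known from brown fat, which went from 9.33 ± 0.914 to 153 ± 14.5 CPM (log2 4.03, adjusted p = 2.21e-05). Hemoglobin and other erythroid genes rose in 5 of 5 (median 1.00), or in 3 with library totals alone. Hba-a1, for alpha globin, measured 106, 155 and 124 CPM in WAT and 209.5, 281 and 279 in BAT (log2 1.00, adjusted p = 0.00441).

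None of the 20 skeletal muscle genes tested passed in edgeR, DESeq2 or limma voom without a block, with 0 lower and 0 higher at an unadjusted p under 0.05 in edgeR. With the replicate number as a block 13 were lower in BAT, and 6 were lower without BAT control 1, 2 without WAT control 3 and 3 without replicate 1 of both depots. Mylpf, a myosin light chain, measured 392, 97.6 and 1.14 CPM in WAT and 47, 2.16 and 1.36 in BAT (log2 −3.28, adjusted p = 0.187, and adjusted p = 0.0144 with the block), so the highest BAT library lay above the lowest WAT library. Epithelial genes were near 0 in all libraries, at no more than 0.00141% of counts. BAT control 2 stood apart with 68 counts of Krt8 and 43 of Krt18, keratins of simple epithelia, against at most 2 and 5 in the other libraries, and with 13 counts of Xist against at most 2. The Y-linked gene Ddx3y was present in all 6 libraries (between 27.5 and 65.9 CPM) and lower in BAT (log2 −0.75, adjusted p = 0.00882). The plot of summed markers shows which libraries stand apart.

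**Figure D5:**
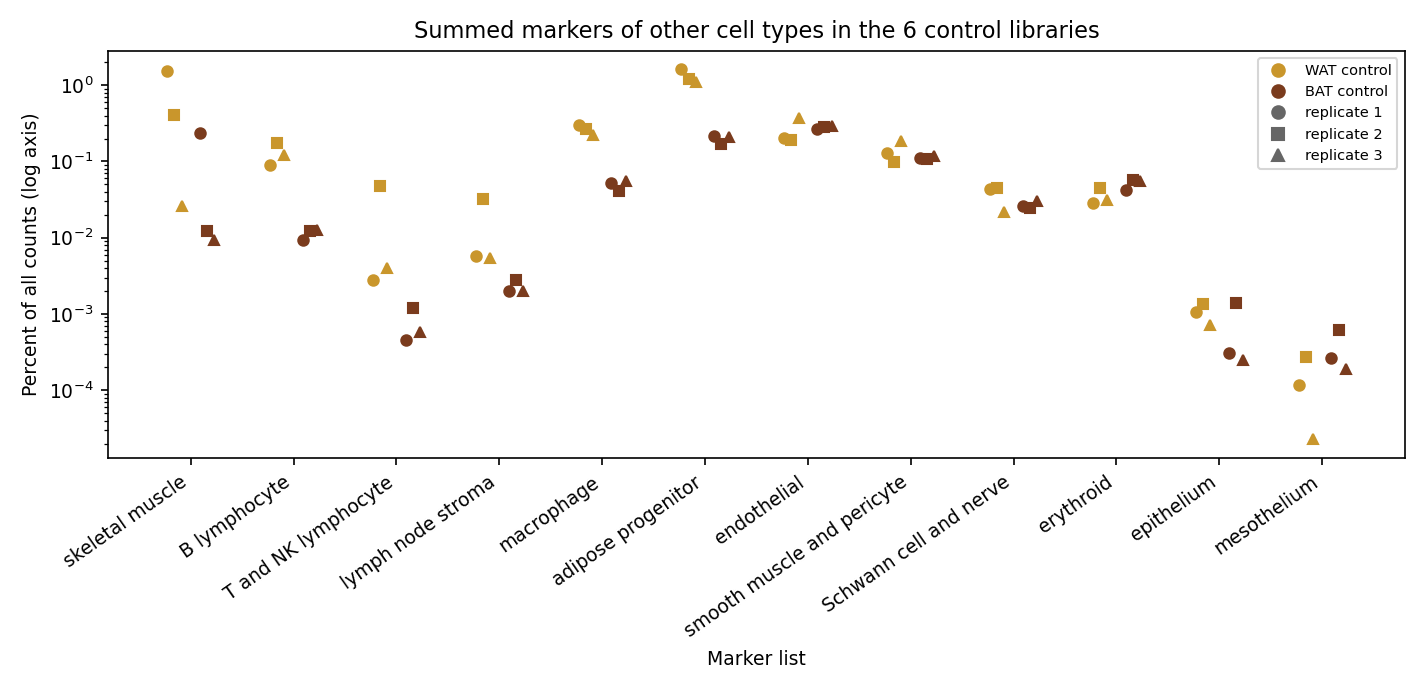
Summed share of counts (percent, log axis) of 12 marker lists of other cell types, one symbol per library. Skeletal muscle is highest in replicate 1 of each depot, T and NK lymphocyte and lymph node genes in WAT control 2, and macrophage and progenitor genes lie higher in each WAT library than in any BAT library.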

How the data were processed

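The authors deposited gene counts (whole reads per gene, not normalized) and FPKM, which matched the counts divided by gene length and library total (largest relative deviation 1.38e-08 for genes of at least 20 counts). Bowtie2 2.2.3, HISAT2 2.1.0, HTSeq 0.6.0 and mm10 are named in the submitters' processing notes. Their roles, the annotation and the use of strand are not given in the sources used, so genes that overlap on opposite strands share an uncertain count. Of the genes with values here, Acot11, Adcy3, Bckdha, Mest, Slc27a2, Slc7a10, Itgad, Gpd1, Npr3, Hoxa3, Hoxa7, Hoxb2, Hoxb3 and Hoxd4 share at least 300 exon bases with such a gene. Of 52550 gene identifiers, 52403 had a symbol in GENCODE M21 and 147 had none.

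The control columns, called WT in the tables, were matched to the Mcu fl/fl titles by depot and number. Genes passing edgeR's filterByExpr (minimum count 10, minimum total 15) were scaled by TMM and tested with edgeR 4.0.16 (glmQLFit, glmQLFTest, no block) over the 6 libraries, with Benjamini-Hochberg adjustment over all genes tested and a threshold of 0.05. Fold changes are log2 values fitted to the deposited counts. Shares of counts and of FPKM were compared across libraries with the exact permutation test (two-sided), whose smallest p is 0.1. Counting intervals and floors (3 counts over the group) cover counting error only. Alternatives used DESeq2 1.42.0, limma 3.58.1 (R 4.3.3), other scalings, filters, thresholds and FPKM pseudocounts (1 and 0.1), the replicate number as a block, and each library left out. Leaving out replicate 1 of both depots was added after the data were seen. Same-numbered WAT and BAT libraries deviated together from their depot means (correlations 0.582, 0.232 and 0.470 over genes, each the highest for its library), a pairing that the labels do not state.

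Members and gene lists were chosen with earlier results of these data known. Genes are named by a rule: a set of known depot markers and Mcu, the 10 largest fold changes each way (mean of at least 2 CPM, no overlap, predicted genes left out), the 10 largest gains and losses in CPM, up to 6 members of each list with the smallest p with up to 3 that go against the list and the 2 with the largest change, the tested Hox genes and all pairs. Some genes that the rule takes in are not reported here. Nnat, Agt, Scd1, Irf4 and Zfp516 were named after their values were seen. The libraries of the adipose deletion were not used.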

Additional observations from a re-analysis of the deposited data

How the results depend on the processing

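Across the alternatives, the genes higher and lower in BAT numbered 2107 and 6253 with library totals alone, 2169 and 5958 with limma on log2(FPKM + 1), 2138 and 6089 with log2(FPKM + 0.1), and 1908 and 5029 at a mean FPKM of at least 1. A 2-fold threshold left 1060 and 1282, an adjusted p under 0.01 left 2465 and 2423 of them, and the fit without replicate 1 of both depots, on fewer libraries, called 2415 and 2348. Without single libraries the counts ran from 2959 to 3576 and from 2981 to 3630. DESeq2 size factors, the other filters, DESeq2, limma voom and the replicate block (3874 and 4258) kept both counts within 1.5 times. Of the 7524 calls, 5965 were made again in the same direction with library totals alone and 7314 with the replicate block, which changed the call of 6 of the genes named: those given above, and Atp2a1 and Cox6a2, lower with it (adjusted p = 0.0279 and 0.0275). The mitochondrial share differed by 11.98 to 12.87 percentage points without single libraries and by 12.3 with the block, and 10 to 13 of the pairs stayed apart.

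Signs turned in genes that had not passed the test, in no gene named that had, and in 2 list medians further than 0.1 from 0. The medians of lipolysis (0.0064, and −0.35 with library totals alone), fatty acid uptake, the creatine cycle and smooth muscle and pericyte genes lay within 0.1 of 0 and also turned. With library totals the log2 fold changes of Hoxb3, Pfkm and Plin1 were −0.087, −0.13 and −0.22. In the FPKM fits Hoxb3 was −0.020 and −0.0045, Plin1 −0.20 and the median of the shared adipocyte list −0.16 (−0.18 with library totals). Without single libraries the log2 fold changes ran from −7.45 to 1.12 for Ckmt2, −4.59 to 1.81 for Cd79a, −0.30 to 1.30 for Pfkm, −0.88 to 0.27 for Hoxa6, −0.013 to 0.67 for Hoxb3, −0.23 to 0.027 for Hoxd8 (0.11 without replicate 1 of both depots) and −0.63 to 0.59 for Irf4. The median of the secreted factors was 0.0061 without a filter, 0.041 in DESeq2, −0.93 to 0.20 without single libraries and 0.086 without replicate 1 of both depots. The cause of these changes was not tested. Libraries of 15692588 to 18967159 counts with 3 a depot leave genes below about 1 CPM with few counts, where fold changes are ratios with wide intervals.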

Other observations

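The balance of directions within gene classes depended on the scaling. Of 13351 protein-coding genes tested, 3211 were higher and 3650 lower, whereas of 56 long non-coding RNAs annotated at bidirectional promoters 30 were higher and 2 lower. Intergenic long non-coding RNAs gave 90 higher and 46 lower of 317, and antisense genes 85 and 41 of 312. Processed transcripts gave 50 and 21 of 187, and the annotation class TEC 49 and 14 of 156. With library totals alone the balance turned for coding genes further toward WAT (1796 higher, 5917 lower), and the bidirectional class held 25 higher and 3 lower, the intergenic class 70 and 61, the antisense class 57 and 57, processed transcripts 26 and 34 and TEC 27 and 26. The difference between classes was not tested. Processed pseudogenes (103 higher and 39 lower of 452) may share reads with their parent genes, so their counts are uncertain.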
